A study of Homo sapiens with 30 samples.

Results

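HOXA2 to HOXA7 are the anterior and central genes of the HOXA cluster on human chromosome 7, and the results concern where RNF2 and RING1 were called over them. All 6 genes were chosen by name, out of 20037 protein-coding genes of the annotation, and each was examined over its gene body and 2 kb around its ends (its window). The libraries were CUT&RUN profiles, in which a nuclease tethered to an antibody releases the DNA around the bound protein. They came from unedited (wild type) neural progenitor cells derived from the human embryonic stem cell line H9, an established line, and grown as a monolayer in N2/B27/FGF medium, with no further treatment named in the labels. The study has 30 libraries of wild type and 4 genotypes made by editing RING1 or RNF2. Peaks of 2 wild-type anti-RNF2 and 2 wild-type anti-RING1 libraries were analysed, and those of the edited genotypes were not analysed here. The lists pair as set A and set B by a number they share, 1 list per antibody in each set, and no label ties a set to a replicate number or says whether the sets are separate cultures. No read depth came with the peak lists, so an uncalled stretch is not evidence that a protein was absent, and peak lists hold no RNA against which the labelled cell type could be checked.

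RNF2 and RING1 are the paralogous E3 ligases of Polycomb repressive complex 1 (PRC1), which puts a single ubiquitin on histone H2A. HOX genes encode homeodomain transcription factors that set position along the head-to-tail axis, and their order on the chromosome follows the order in which they are used along that axis. In the embryo the anterior genes are used in the hindbrain and pharyngeal arches and the central ones in the neck and upper trunk. Where a HOX cluster is silent, PRC1 typically lies over it as a broad domain, and PRC1 is known to be drawn to DNA rich in unmethylated CG dinucleotides.

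The promoters below are shown for the contrast on which the results turn, namely which of them met the few RING1 peaks of set B. Each is the 250 bases upstream of an annotated start, from RefSeq on hg38 (GRCh38.p14), minus strand, 5′ to 3′, with every CG dinucleotide in capitals. The HOXA2 promoter (chr7:27102684-27102933), the HOXA4 promoter (chr7:27130758-27131007) and the promoter of the sixth HOXA3 start counted by coordinate (start 6, chr7:27150951-27151200) met RING1 peaks of set B.
HOXA2: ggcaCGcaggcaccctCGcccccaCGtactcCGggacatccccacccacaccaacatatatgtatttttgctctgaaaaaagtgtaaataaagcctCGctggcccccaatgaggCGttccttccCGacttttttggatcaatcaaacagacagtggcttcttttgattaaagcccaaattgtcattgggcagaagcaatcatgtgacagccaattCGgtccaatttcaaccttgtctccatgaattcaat
HOXA4: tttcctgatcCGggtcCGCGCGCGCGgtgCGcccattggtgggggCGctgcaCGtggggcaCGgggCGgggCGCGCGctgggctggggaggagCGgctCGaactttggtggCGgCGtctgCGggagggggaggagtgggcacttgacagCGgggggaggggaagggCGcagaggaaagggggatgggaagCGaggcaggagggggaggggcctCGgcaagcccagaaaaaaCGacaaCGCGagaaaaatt
HOXA3 start 6: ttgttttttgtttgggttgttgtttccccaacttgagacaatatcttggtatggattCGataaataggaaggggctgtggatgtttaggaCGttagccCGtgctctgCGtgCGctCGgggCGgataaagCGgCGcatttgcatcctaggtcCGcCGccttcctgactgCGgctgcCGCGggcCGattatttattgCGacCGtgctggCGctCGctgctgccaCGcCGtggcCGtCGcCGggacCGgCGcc
The promoters of HOXA6 (chr7:27147775-27148024) and HOXA7 (chr7:27156676-27156925) met none. HOXA3 start 3 (chr7:27119596-27119845) lay inside a break between the broad RNF2 peaks of set B and holds no CG at all.
HOXA6: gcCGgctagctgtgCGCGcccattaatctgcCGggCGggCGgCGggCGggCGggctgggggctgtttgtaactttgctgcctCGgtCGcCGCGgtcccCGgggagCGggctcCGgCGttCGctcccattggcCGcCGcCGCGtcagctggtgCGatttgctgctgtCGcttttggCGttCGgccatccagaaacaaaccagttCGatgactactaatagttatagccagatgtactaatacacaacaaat
HOXA7: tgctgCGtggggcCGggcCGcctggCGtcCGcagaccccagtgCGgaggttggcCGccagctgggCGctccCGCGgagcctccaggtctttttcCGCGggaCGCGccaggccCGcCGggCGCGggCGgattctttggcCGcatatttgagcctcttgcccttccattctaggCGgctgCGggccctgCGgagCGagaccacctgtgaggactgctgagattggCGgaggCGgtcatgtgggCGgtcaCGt
HOXA3 start 3: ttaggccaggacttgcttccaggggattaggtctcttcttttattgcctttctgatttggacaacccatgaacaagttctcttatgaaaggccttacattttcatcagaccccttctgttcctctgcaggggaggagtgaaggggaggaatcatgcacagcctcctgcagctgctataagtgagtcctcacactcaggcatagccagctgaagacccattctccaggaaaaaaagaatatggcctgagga

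RNF2 lay over all 6 genes in both sets, RING1 lay over them in set A, both with at least 96.8% of each window covered, and RING1 of set B was called at 4 of them in short, separate peaks. The background of these counts is wide for set A and narrow for RING1 of set B. Of all protein-coding genes, 60.7% had an RNF2 peak in their window in set A, 25.2% had one in set B, and 23.9% had one in both. For RING1 these shares were 50.5%, 1.58% and 1.57%. All 4 lists met 4 of the 6 windows, against 1.52% of all windows. Having a peak therefore says little about these genes in set A. Whole coverage of a window was rarer, at 0.923% and 0.544% of all genes for RNF2 in sets A and B and at 0.624% and 0.00998% for RING1. By that measure 6 and 5 of the 6 windows were wholly under RNF2 peaks in sets A and B, and 5 and 0 were wholly under RING1 peaks. A short window is more easily covered whole, and the shares of all genes were not matched for length. Windows of the members were 6233 to 6960 bp long, apart from that of HOXA3 at 49574 bp. The windows are not independent, because the annotated HOXA3 gene is long (45574 bp) and its window holds those of HOXA4, HOXA5 and HOXA6 entirely and 41.2% of that of HOXA7.

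**Figure D1:**
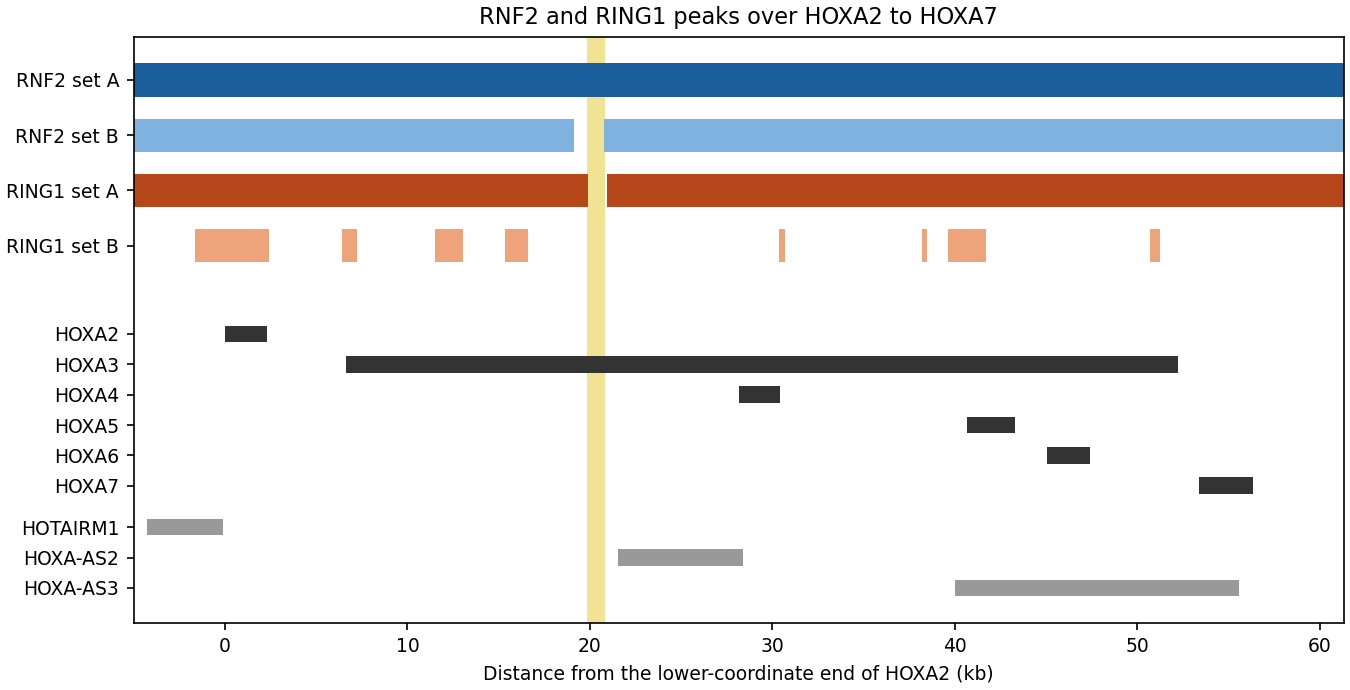
Peaks of the 4 lists over HOXA2 to HOXA7 (coloured bars, running on beyond the plot where they reach its edge), with the gene bodies of the 6 genes (black) and of the noncoding genes among them (grey), against distance from the lower-coordinate end of HOXA2 in kb. Only peaks that meet chr7:27098354-27158675 are drawn. A RING1 peak of set B that begins 3669 bp above the upper end of HOXA7 is left out near the right edge. RNF2 of set A runs through without a break, RNF2 of set B and RING1 of set A share a break inside HOXA3 (yellow, 862 bp), and RING1 of set B consists of 8 short peaks.

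Few peaks lie behind these gene counts. In set A a single RNF2 peak held all 6 windows, at chr7:27081460-27217487, with a width of 136028 bp. It was the 2nd widest of 16263 RNF2 peaks of that set, and its fold, the authors' ratio of signal over background, was 13.7 against a list median of 4.04. In set B the same stretch was held by 2 RNF2 peaks, at chr7:27089767-27119509 (29743 bp, fold 7.41) and chr7:27121111-27208213 (87103 bp, fold 7.26). The second of these was the widest of all 5901 RNF2 peaks of set B, where the median width was 779 bp. RING1 of set A also had 2 peaks, at chr7:27086285-27120248 (33964 bp, fold 9.03) and chr7:27121285-27189609 (68325 bp, fold 7.52). The wider of the pair ranked 2nd by width among 12891 peaks, and the fold of both was above that of at least 97.6% of the list. The lower-coordinate edges of these 3 domains fell within 8307 bp of each other; all lay at least 10587 bp below HOXA2, and their upper edges, beyond HOXA7 by at least 32934 bp, spread over 27878 bp.

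RING1 of set B had another shape. It had 8 peaks between the outer edges of the HOXA2 and HOXA7 windows (chr7:27098354-27158675, 60322 bp), with widths from 298 to 4037 bp and a median of 1059 bp, against a list median of 1320 bp. Their folds ran from 4.03 to 5.50 with a median of 4.64, against a list median of 4.49. Their −log10 q values ran up to 3.99, so none reached 5, a limit that 7 peaks of the list met. The peaks lay wholly inside the peaks of each of the other 3 lists, with all 11057 of their bases shared. Nesting of this kind was common for the list, since 83.8% of its 659 peaks lay wholly inside peaks of all 3 other lists.

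**Figure D2:**
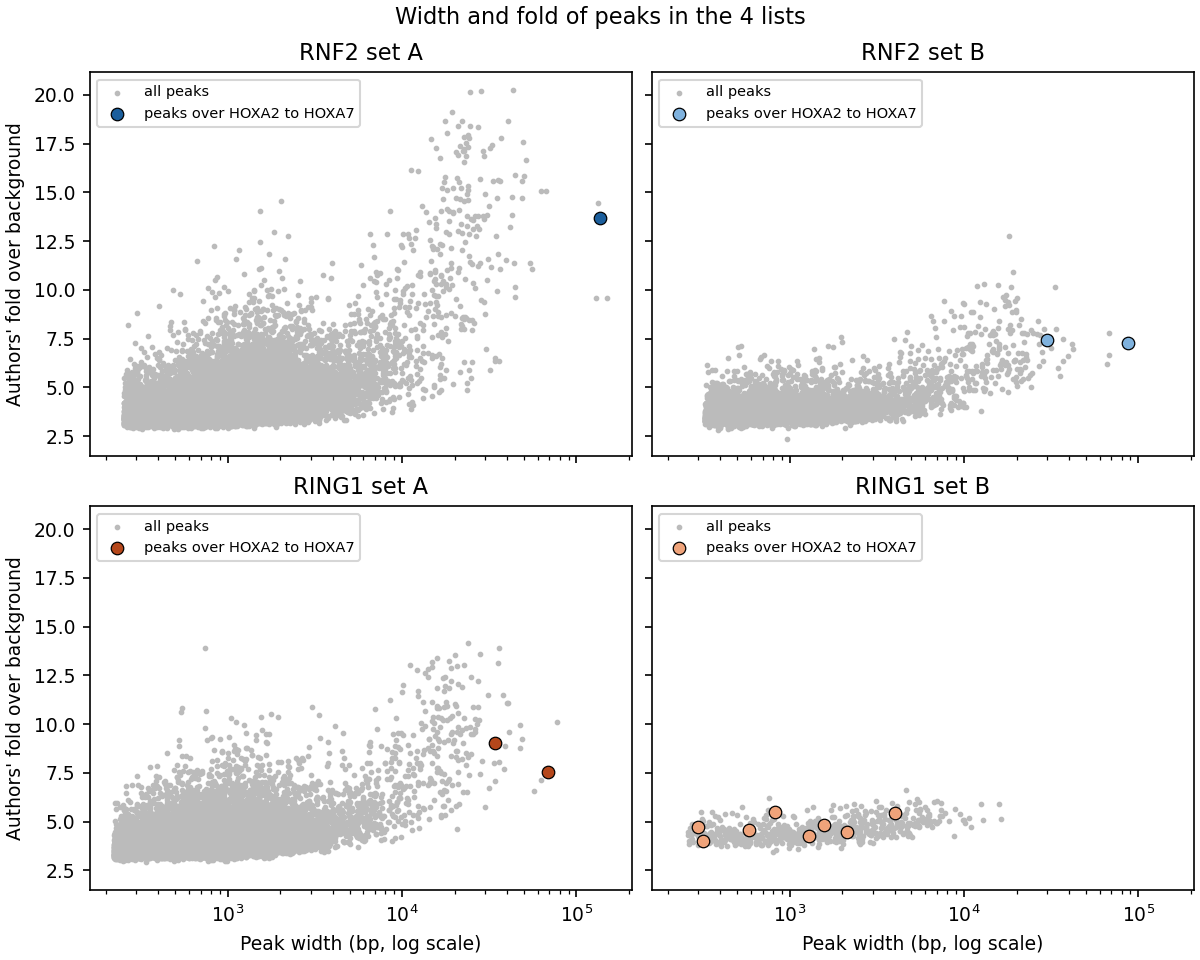
Width in bp (log scale) against the authors' fold over background for every peak of each list (grey) and for the peaks over HOXA2 to HOXA7 (coloured), RNF2 above and RING1 below, set A left and set B right. The domains of the first 3 panels lie at the wide end of their lists, whereas the 8 RING1 peaks of set B are spread through theirs.

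Over the 60322 bp as a whole, peaks covered 100% in RNF2 set A, 97.3% in RNF2 set B, 98.3% in RING1 set A and 18.3% in RING1 set B. Coverage thus averaged 98.7% ± 1.88 for RNF2 and 58.3% ± 56.5 for RING1 (SD, n = 2 lists each), a difference of 40.4 percentage points. It was 1.72 percentage points in set A alone and 79.0 in set B alone. An exact two-sided permutation test over the lists, without pairing them by set, gave p = 0.667, and 2 lists against 2 cannot give less than 0.333. The RING1 lists differed from each other by more than either RNF2 list differed from RING1 of set A. The RING1 list of set B holds 659 peaks and the RING1 list of set A 12891. With every list cut to its 659 most significant peaks all 4 shares stayed the same. That cut cannot change RING1 of set B and keeps the remaining peaks of the other lists at full width. Whether depth or list size bears on the shares was therefore not tested by it.

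HOXA2, which patterns the hindbrain and the second pharyngeal arch, had the largest share under RING1 of set B among the 6. Its gene (chr7:27100354-27102683) lay wholly under a RING1 peak of set B at chr7:27098718-27102754, 4037 bp wide, with a fold of 5.45 that exceeded 93.2% of the list. The share of the HOXA2 window under peaks was 100% and 100% for RNF2 in sets A and B, and 100% and 63.8% for RING1. In RING1 of set B 25 genes of the annotation had a larger covered share, out of 317 with a peak. All 4 lists overlapped over its whole body. The same peak ran on into HOTAIRM1, a noncoding gene next to HOXA2, and covered 37.0% of its body.

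HOXA3, needed in mouse for the thymus and parathyroid glands, was the member with the most separate peaks and the only one of the 6 that a broad domain left partly open. The window (chr7:27105010-27154583) was covered to 100% and 96.8% by RNF2 in sets A and B and to 97.9% and 14.2% by RING1. It met 7 RING1 peaks of set B, a number that no gene exceeded and that 2 genes reached, HOXA3 included, with folds from 4.03 to 5.50. The strongest, at chr7:27106786-27107606, lay at the lower-coordinate end of the gene and had the highest fold of the 8. Because HOXA3 is annotated across its neighbours, 2 of the 7 peaks also met the windows of HOXA4 and HOXA5.

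The open stretch inside HOXA3 was placed alike in lists of both antibodies. RNF2 of set B broke off over 1601 bp (chr7:27119510-27121110) and RING1 of set A over 1036 bp (chr7:27120249-27121284). The 862 bp common to both (chr7:27120249-27121110) also held no RING1 peak of set B, and there only RNF2 of set A had a peak. The lower side of the break differed by 739 bp between the lists and the upper side by 174 bp. HOXA-AS2, a noncoding gene that overlaps HOXA3 and HOXA4, begins 635 bp above the RING1 break. Its body was wholly covered in the first 3 lists and met no RING1 peak of set B, which was uncalled over 13734 bp here (chr7:27116993-27130726), its longest gap in the region.

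HOXA4, which in mouse helps to pattern the neck vertebrae, met its RING1 peak of set B at the gene start. That peak, at chr7:27130727-27131044, was 318 bp wide, and 281 of the 300 bases of the HOXA4 promoter lay under it. It was weak within its list, with a fold of 4.03 that exceeded 12.7% of the peaks and a −log10 q of 1.36. The HOXA4 window was covered to 100% and 100% by RNF2 in sets A and B, and to 100% and 5.10% by RING1. The broad domains and the short peak thus overlapped at the promoter printed above, while 1.39% of the HOXA4 gene body lay under RING1 of set B.

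HOXA5, which in mouse is needed for lung and airway development, met a wider RING1 peak of set B. The peak at chr7:27139958-27142080 (2123 bp, fold 4.47) covered 39.1% of the gene body and 32.0% of the window. RNF2 covered the window to 100% in both sets, as RING1 did in set A. HOXA-AS3, a noncoding gene that overlaps HOXA5, HOXA6 and HOXA7, was covered to 14.8% by RING1 of set B in 2 peaks and wholly in the other 3 lists.

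HOXA6 and HOXA7, which act in patterning of the trunk skeleton in mouse, had no RING1 peak in set B. Both windows were covered to 100% by RNF2 in sets A and B and to 100% by RING1 of set A, with folds of 13.7, 7.26 and 7.52. In RING1 of set B both were at 0%, and the nearest peak ended 93 bp outside the HOXA7 window and lay 1263 bp outside the HOXA6 window. That peak, at chr7:27151038-27151622 (585 bp, fold 4.57), lies between both genes. It met the promoter of HOXA3 start 6, upstream of the start and not at the start itself. The count of 4 genes thus turns on the edge of the window for HOXA7, and with 5 kb around the gene ends all 6 genes had RING1 in set B.

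**Figure D3:**
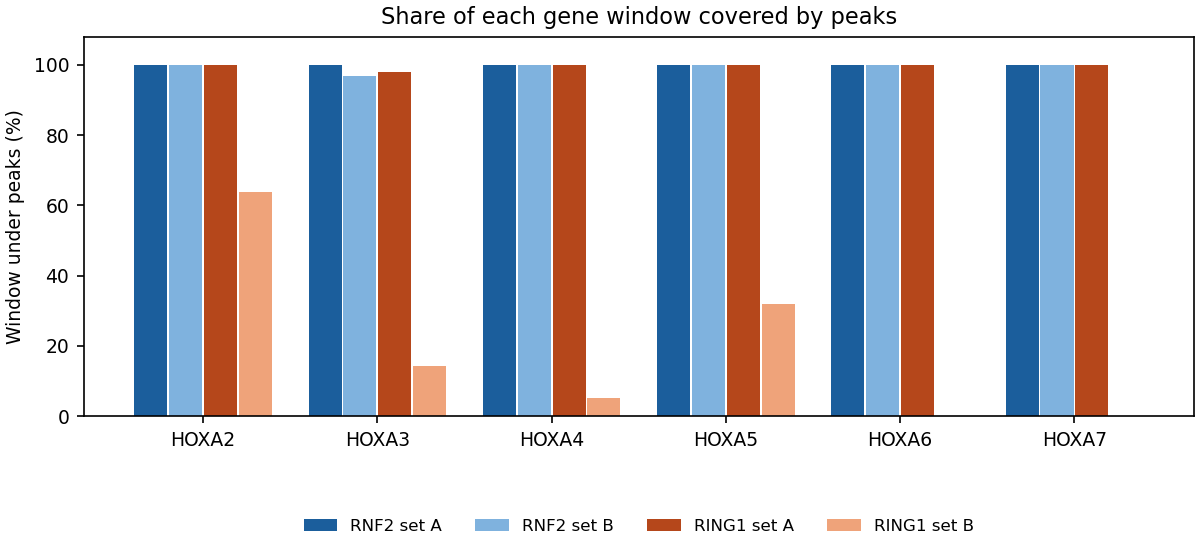
Share of each gene window (gene body and 2 kb around its ends) under peaks, in percent, for the 4 lists, with 1 value per list and no error bar. RNF2 of both sets and RING1 of set A cover at least 96.8% of every window, and RING1 of set B runs from 63.8% at HOXA2 to 0% at HOXA6 and HOXA7.

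Promoters with and without a RING1 peak of set B overlapped in CG content. The RefSeq table held 11 promoters for 5 of the genes, 7 of them for HOXA3, and none for HOXA5. Counts refer to the full 300 bases of the table, 250 before and 50 after each start. The 3 promoters that met RING1 of set B held 11 (HOXA2), 27 (HOXA4) and 29 (HOXA3 start 6) CG dinucleotides. Of all promoters, 0.575% met a RING1 peak of set B. Among the 8 that did not, HOXA6 held 29 and HOXA7 held 31, while HOXA3 start 3 held 0. The remaining HOXA3 starts held 25, 6, 15, 7 and 15, in order of coordinate. The median over 34943 promoters was 14. HOXA2, whose gene body lay wholly under RING1 of set B, therefore had a promoter below the median, and 54.6% of all promoters held at least as many CG. Of the 300 promoter bases, 121 of HOXA2, 281 of HOXA4 and 163 of HOXA3 start 6 lay under these peaks. The CG counts thus include bases outside the peaks.

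**Figure D4:**
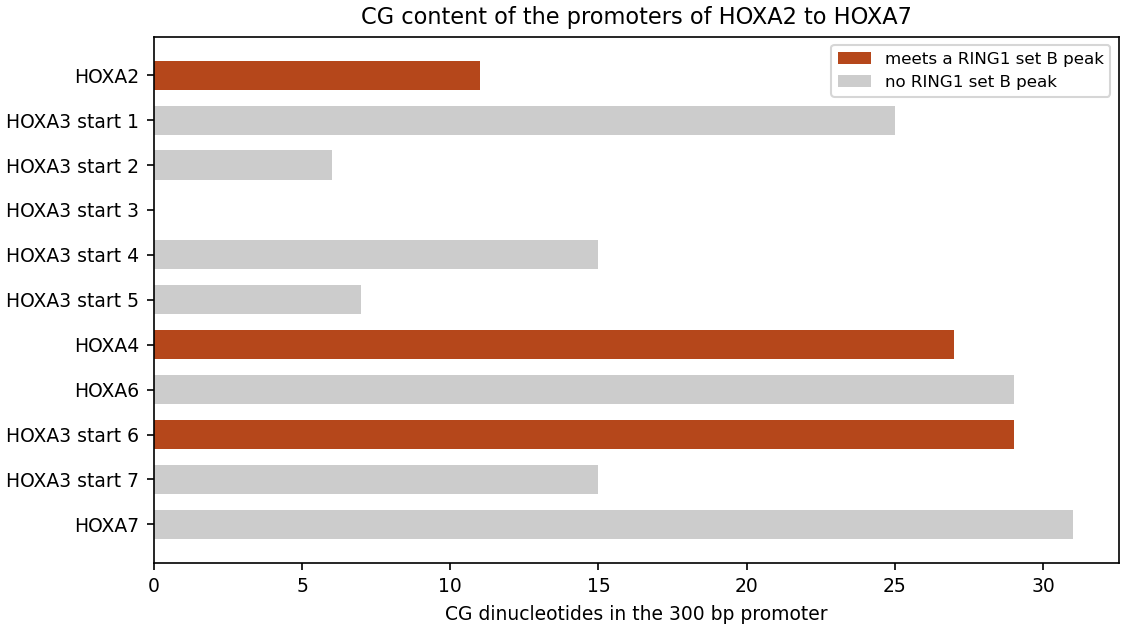
Number of CG dinucleotides in each 300-base RefSeq promoter of the genes, in chromosomal order from HOXA2 to HOXA7, with HOXA3 starts numbered by coordinate; orange bars met a RING1 peak of set B and grey bars did not. Orange bars stand at 11, 27 and 29 and grey bars between 0 and 31.

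The broad domains met promoters of every CG class. All 11 promoters were wholly under RNF2 of set A and RING1 of set A, and 10 were wholly under RNF2 of set B. The exception was HOXA3 start 3, with 0 bases. These promoters are not independent, since 1 or 2 broad peaks per list held them. Of all promoters, 38.4% and 12.4% met an RNF2 peak in sets A and B, and 28.8% met a RING1 peak in set A. The shares of all promoters, here and by CG class, count any overlap and not whole coverage. Across all promoters, those with fewer than 10 CG met an RNF2 peak in 4.44% (set A) and 1.03% (set B) of cases, whereas RING1 peaks met 2.39% and 0.124% of them. Those with 10 to 19 CG met RNF2 in 42.4% and 13.3% and RING1 in 30.5% and 1.07%. Those with at least 20 CG met RNF2 in 73.2% and 24.2% and RING1 in 56.3% and 0.872%. HOXA3 starts 2, 3 and 5, with 6, 0 and 7 CG, fall in the poorest class, and each lay under RNF2 and RING1 of set A.

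Searches on both strands found short motifs at few of these promoters. CACGTG, the E-box bound by MAX and MGA, stood once each in the promoters of HOXA4, HOXA7 and HOXA3 start 2, and in 7.23% of all promoters. TCCCGC, part of the E2F site, stood in those of HOXA4, HOXA7 (2 matches) and HOXA3 start 1, and in 26.8% of all promoters. The homeodomain core TAATTA and the retinoid receptor half-site AGGTCA, present in 4.85% and 13.8% of all promoters, had no match in the 11. These are matches of letters in a window and not binding sites.

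The posterior HOXA genes continued the pattern of the first 3 lists. HOXA9, HOXA10, HOXA11 and HOXA13 were wholly covered by RNF2 in both sets and by RING1 in set A, under the peaks described above, apart from HOXA13, which had a separate RING1 peak in set A (fold 7.43). In RING1 of set B, these 4 genes each had a peak, as had 4 of HOXA2 to HOXA7. The call at HOXA11 rests on the edge of its window, with 1.04% of 8076 bp covered. HOXA9, the neighbour of HOXA7, had 3 peaks and 40.1% of its window covered. From HOXA9 to HOXA13 with 2 kb around (41654 bp) RING1 of set B covered 23.1%, against the 18.3% given above for HOXA2 to HOXA7. No test of this difference was made, since each list gives 1 value per stretch.

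Genes of the same paralog groups in the HOXB, HOXC and HOXD clusters were also mostly under broad peaks in the first 3 lists. The 11 genes of groups 2 to 7 outside HOXA were wholly covered by RNF2 in set A, 8 were in set B, and 9 were wholly covered by RING1 in set A. RING1 of set B met 4 of 6 HOXA genes with a median covered share of 9.63%, and 7 of 11 of the paralogs with a median of 4.65%. Windows of the paralogs overlap too, so neither count is of independent genes. The HOXB3 window holds that of HOXB4, and the windows of HOXC4, HOXC5 and HOXC6 begin at the same coordinate. The highest share was 63.8% at HOXA2 and 19.8% among the paralogs, at HOXB4. HOXB2, the paralog of HOXA2, had none. Windows of HOXA3, HOXB3 and HOXD3 were each held by 2 RNF2 peaks in set B with part left open, at 96.8%, 91.8% and 87.4% covered, as was that of HOXC4 (89.5%). These 4 windows were long, at 49574, 45372, 24570 and 43143 bp.

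**Figure D5:**
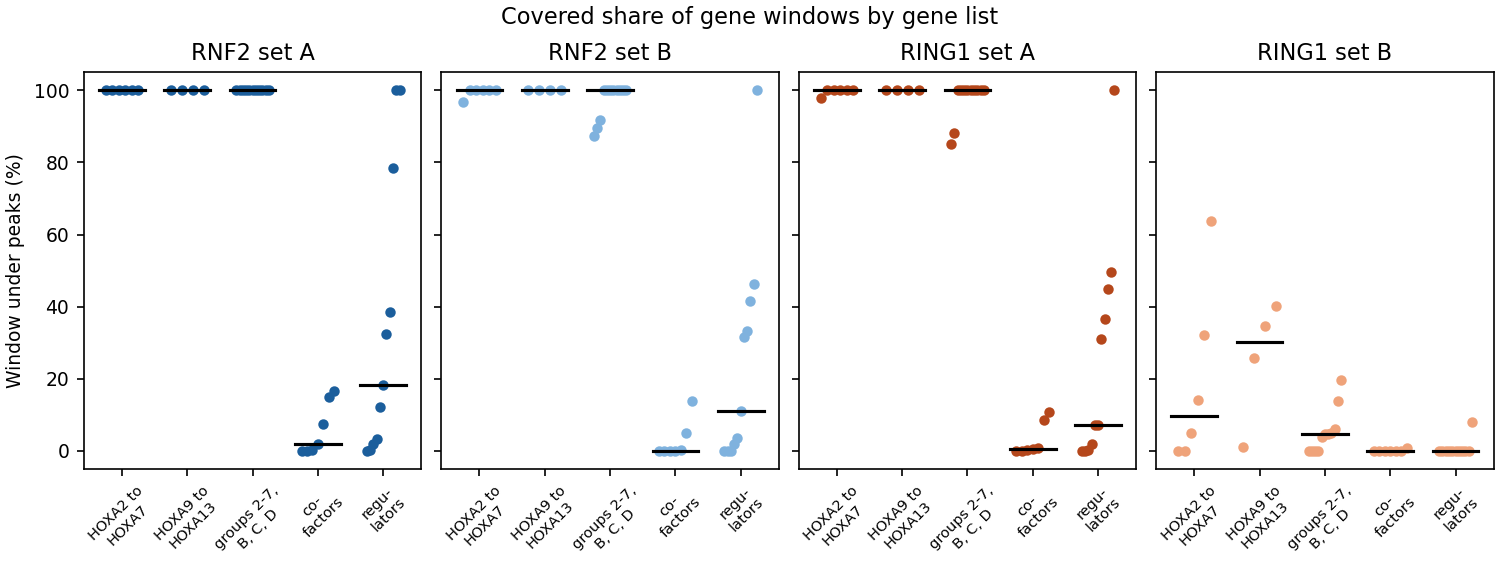
Share of gene windows under peaks, in percent, for HOXA2 to HOXA7 and 4 further gene lists in each peak list; each point is a gene and each line the median of its list. HOX genes sit at 85.1% or more in RNF2 of both sets and RING1 of set A, and cofactor genes stay at or below 16.5% in all 4 lists.

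Genes that act with or upstream of the anterior HOX genes had median covered shares of at most 18.2% in every list, although CDX2 among them was covered as widely as HOXA genes, and this is a description with no test. PBX and MEIS proteins bind DNA together with HOX proteins. Of their 7 genes, 5 and 3 met an RNF2 peak in sets A and B and 5 and 1 met a RING1 peak, none wholly covered. MEIS1 had the highest mean share over the lists, with 16.5% and 14.0% for RNF2 and 10.7% and 0% for RING1, in a window of 142745 bp. PBX2 met no peak in any list. Among 11 genes of regulators of HOX expression (retinoic acid receptors and CYP26 enzymes, CDX factors, EGR2 and KMT2A), 10 and 8 met RNF2 and 9 and 1 met RING1. Of all protein-coding genes, 60.7% and 25.2% met RNF2 in sets A and B, and 50.5% and 1.58% met RING1. A long window meets a peak more easily, and windows in these lists ran from 8411 bp (CYP26A1) to 772612 bp (RARB). The shares of all genes were not matched for length. CDX2, a caudal-type homeobox gene that acts upstream of HOX genes, was wholly covered by RNF2 in both sets and by RING1 in set A, and to 8.03% by RING1 in set B. CYP26C1, an enzyme that breaks down retinoic acid, was covered to 100% and 46.2% by RNF2 and to 44.8% and 0% by RING1. CDX1 met no peak.

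The authors' consolidated regions, deposited without values, placed all 6 genes in a single region at chr7:27081459-27218517. At 137059 bp it was the 2nd widest of 4255 regions. A window lay wholly inside such a region at 0.958% of all protein-coding genes.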

How the data were processed

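CUT&RUN libraries were prepared with a commercial kit, per the labels' protocols. Build hg38 and the tools MACS2 2.2.9.1, BWA 0.7.17, deepTools 3.5.2, Picard 2.8.1, SAMtools 1.9 and bedtools 2.30.0 stand in the submitters' processing notes, which give them no roles and name no control. Each deposited list is in broad peak format, from 1 antibody and 1 set. The authors' fold is a ratio of signal over background per peak, and the deposited significance is −log10 of the q-value, whose lowest value is 1.01. The consolidated regions carry deposited coordinates and no score.

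Only peaks of chromosomes 1 to 22, X and Y entered, with starts converted to 1-based positions. Gene positions are those of RefSeq on GRCh38.p14 (20037 protein-coding genes). A window is the gene body and 2 kb around its ends, and an overlap is at least 1 bp. The members, the 4 comparison lists and the motifs were chosen with earlier results of these data known. Named outside the members were the genes with the 2 highest and 2 lowest mean covered shares of each list (some given only by counts), HOXA9 as a neighbour, and noncoding genes of the region; HOXB2 and HOXD3 were named after their values were seen. Some genes of these lists are not reported here. No depth was available, so no counting interval was computed, and with 2 lists per antibody the only tests were exact permutation tests. The overlap step was tested on simulated data. The work was done in Python 3.11.15 with pandas 2.3.3, matplotlib 3.10.9 and numpy 2.4.6.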

Additional observations from a re-analysis of the deposited data

How the results depend on the processing

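With peaks kept only at a −log10 q of at least 5, RING1 of set B was left with 7 peaks in all and met 0 of the 6 genes, so 0 genes had RING1 in both sets and the region was covered to 0% in that list; the 3 other lists kept their values. Every other setting kept the counts of genes within 1.5 times. RING1 of set B met 3 genes when 500 bp of the window had to be covered, HOXA4 being lost, and 6 genes with 5 kb around the gene ends. It met 4 with gene bodies only, with 1 kb, or with all lists cut to the length of the shortest (659 peaks, by q). The last setting leaves RING1 of set B as it was, since it is the shortest list. RNF2 met 6 genes in both sets under each of these settings. The difference in coverage between RNF2 and RING1 ran from 1.72 percentage points with set A only to 79.0 with set B only, so set B decides its size. It ran from 40.4 to 49.5 percentage points under the other settings, with an exact unpaired permutation p of 0.667 throughout. Coverage in a single list has no value with a set left out. Joining peaks within 1 kb changed no number of peaks over the region. It could not, since the narrowest gap between peaks there was the break of 1036 bp in RING1 of set A. With the lists paired by set (a replicate block added after seeing the data), RNF2 was higher in both sets, the mean difference was 40.4 percentage points, and an exact two-sided sign-flip permutation test gave p = 0.5, the smallest that 2 pairs allow. The pairs rest on the number the lists share, which the labels tie to no replicate. The unknown depth of each library limits what an uncalled stretch means.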
